A study of Homo sapiens with 10 samples.

Results

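The heat shock genes followed were HSPA6, HSPA1A, HSPA1B, HSPA8, DNAJB1, HSPH1, HSP90AA1, HSPB1, HSPD1 and HSF1. These 10 genes were matched by symbol to the 63152 Ensembl identifiers of the expression tables, and each matched 1 identifier. HSPA6 was chosen by its measured levels, as a gene with higher reads in cells given either of the ATPase-deficient proteins than in control, so its values that involve those groups are given as a description, without a test. HSPD1 encodes a chaperonin of mitochondria, whereas the other proteins of the group act mainly in the cytosol and nucleus.

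The RNA came from C33A, a human cervical carcinoma cell line that is deficient in the ATPases of the SWI/SNF chromatin remodelling complexes. The cells were harvested 48 h after transient transfection with the vector pOPRSVI (control), pBJ5-BRG1 (BRG1-wt), pBJ5-BRG1-K798R (BRG1-mut), pCG-hBrm (BRM-wt) or pCG-hBrm-K798R (BRM-mut), with 2 libraries per group. K798R exchanges a lysine of the ATPase domain, and the encoded protein lacks ATPase activity. The ATPase plasmids have another backbone than the control vector, so an effect of the insert and one of the backbone cannot be told apart, and transiently transfected cells are a mixture of cells with and without plasmid. The study speaks of duplicates for the cells that received BRG1 or BRM, but neither it nor the labels say whether the 2 libraries of each group, control included, came from separate cultures. P-values therefore cover only the spread between these libraries, which may in part be technical. All 4 comparisons with control share the same 2 control libraries.

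Heat shock proteins are molecular chaperones that hold, fold or unfold other proteins. HSP70 proteins bind exposed hydrophobic stretches of their clients and are driven by ATP, J-domain proteins such as DNAJB1 deliver clients and stimulate the ATPase, and nucleotide exchange factors such as HSPH1 reset the cycle. HSP90 proteins act later on partly folded clients such as kinases and receptors, and small heat shock proteins hold unfolded clients without ATP. HSF1 is the transcription factor that, on stress, forms trimers and binds heat shock elements, inverted repeats of the letters GAA, in the promoters of these genes. HSPA8 and HSP90AA1 are abundant without stress, whereas HSPA6 is known as strictly inducible and is almost silent in most unstressed human cells.

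The promoters of 3 HSP70 genes are shown because they differ in the perfect heat shock element that HSF1 is known to bind. The 150 bases before the annotated start are given 5′ to 3′ on the strand of the gene, from RefSeq (GRCh38.p14), with matches to GAANNTTCNNGAA or its reverse complement TTCNNGAANNTTC in capitals. They lie at chr1:161524390-161524539 (HSPA6, + strand), chr6:31815393-31815542 (HSPA1A, + strand) and chr11:123062137-123062286 (HSPA8, - strand).
HSPA6: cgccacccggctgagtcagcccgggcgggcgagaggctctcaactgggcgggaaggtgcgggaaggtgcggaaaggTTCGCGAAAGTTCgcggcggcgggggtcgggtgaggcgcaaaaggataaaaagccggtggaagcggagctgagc
HSPA1A: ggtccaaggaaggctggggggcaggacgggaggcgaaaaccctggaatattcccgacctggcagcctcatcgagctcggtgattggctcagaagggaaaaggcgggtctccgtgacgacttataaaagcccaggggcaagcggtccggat
HSPA8: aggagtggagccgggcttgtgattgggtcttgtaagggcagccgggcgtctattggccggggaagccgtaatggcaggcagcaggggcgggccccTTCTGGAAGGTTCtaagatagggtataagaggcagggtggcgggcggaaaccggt

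The match in HSPA6 begins 74 bases before the start and that of HSPA8 begins 55 bases before it. HSPA8 has another match, outside the stretch shown, that begins 230 bases before the start. Of the 35116 RefSeq promoters of 300 bases (250 before and 50 after the start), 0.49% held these letters on either strand. Promoters of 9 of the 10 genes were found, 13 in all, and 4 of the 13 held a match, belonging to HSPA6, HSPA8, HSP90AA1 and HSPD1. The 2 matches in HSPD1 overlap each other. HSPA1A, HSPA1B, DNAJB1, HSPH1 and HSPB1 had no match in these windows, which says only that this exact spelling is not there.

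The 10 libraries held between 30776335 and 43107185 reads on genes. SMARCA4, which encodes BRG1, had 46527 to 65524 reads in the 4 libraries of the BRG1 groups and 1646 to 5469 reads in the other 6. SMARCA2, which encodes BRM, had 43748 to 222526 reads in the 4 libraries of the BRM groups and 3 to 14 in the other 6. Of the epithelial markers, KRT8 and KRT18 were well detected, with at least 47 and 119 reads per library, EPCAM had 18 to 43 reads, and KRT19 and CDH1 were near 0. In BRG1-wt against control KRT8 was higher by 3.07 ± 0.25 on the log2 scale (SE, adjusted p = 0.0173 by limma) and KRT18 by 2.64 ± 0.34 (adjusted p = 0.0497), and in BRG1-wt against BRG1-mut KRT8 was higher by 2.23 ± 0.20 (adjusted p = 0.0147). PTPRC, a marker of leukocytes, had 934 to 2322 reads in every library, while DCN, of fibroblasts, had 3 to 13. The summed level of 4 markers of other cell types was 1648 to 2097 normalised reads in control, 1604 to 2278 in BRG1-wt, 1512 to 2059 in BRG1-mut, 1648 to 2306 in BRM-wt and 1982 to 2343 in BRM-mut. These sums consist mostly of PTPRC, and their ranges overlapped in all 5 groups. The other markers did not all overlap, since in BRG1-wt COL1A1 was at 38.3 and 59.9 normalised reads against 24.2 and 21.8 in control, COL1A2 at 312.0 and 427.5 against 215.2 and 152.4, and DCN at 3.6 and 3.1 against 9.7 and 12.4. Of the 4 markers 0 were called in BRG1-wt by limma (lowest adjusted p = 0.356) and 3 had an unadjusted p under 0.05. Their part in the results below was not tested. Levels are given below as normalised reads, which are reads divided by the size factor of the library (median of ratios over the 10 libraries), and the libraries of a group are called a and b with no order implied.

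HSPA6 (ENSG00000173110, a gene without introns on chromosome 1 of GRCh37 from 161494330 to 161496684) encodes the strictly inducible HSP70B′. It was at 9.7 and 11.4 normalised reads in the control libraries, from 10 and 11 reads. It was at 276.3 and 298.5 in BRG1-wt and at 196.5 and 146.8 in BRG1-mut. It was at 50.2 and 18.4 in BRM-wt and at 436.4 and 120.5 in BRM-mut. Both BRG1-wt libraries lay above both control libraries, as in 17.5% of 16504 genes, and so did both of BRM-wt, as in 9.43%. The lowest library with an ATPase plasmid was BRM-wt b, at 15 reads. The libraries of BRG1-mut and BRM-mut lay above control too, but HSPA6 was chosen by its levels there. From low to high, the group means were ordered control, BRM-wt, BRG1-mut, BRM-mut and BRG1-wt. The libraries of BRM-mut overlapped with those of both its neighbours in this order, so BRM-mut did not differ from BRG1-mut or BRG1-wt beyond the spread. The libraries of BRG1-mut and BRG1-wt did not overlap each other, and control, BRM-wt and BRG1-mut were separated too. The places of the mutant groups in this order were in part set by the choice of HSPA6. The summed level of the 5 epithelial markers was 233 to 412 normalised reads in control, 1962 to 2075 in BRG1-wt, 461 to 675 in BRG1-mut, 1240 to 2203 in BRM-wt and 312 to 554 in BRM-mut. This sum consists mostly of KRT8 and KRT18, and its part in the levels of HSPA6 was not tested. In bulk RNA, more cells that express a gene and more RNA per cell cannot be told apart.

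**Figure D1:**
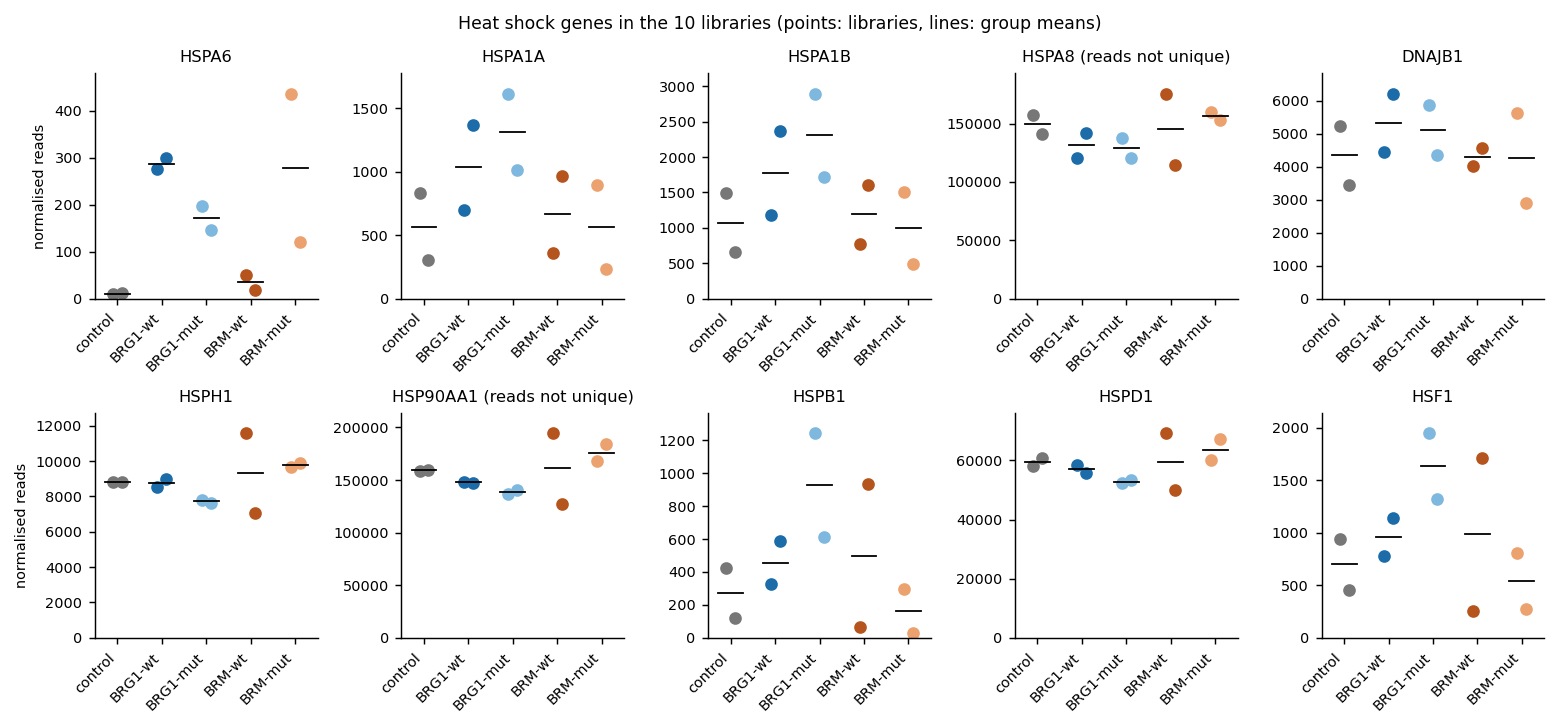
Normalised reads (linear axes from 0) of the 10 heat shock genes in the 5 groups, with a point for each library and a line at the mean of 2 libraries. HSPA6 lies near the axis in control and reaches 436.4 in BRM-mut a, while the points of HSPB1 and HSF1 are far apart within groups. For HSPA8 and HSP90AA1 the points show only 1 of several sets of reads that give the deposited means.

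The mean of HSPA6 in BRG1-wt was 287.4 ± 15.6 normalised reads (SD, n = 2) against 10.5 ± 1.2 in control, a ratio of 27.2. The fitted log2 fold change was 4.70 ± 0.35 (SE, limma with voom weights, adjusted p = 0.0166), and HSPA6 was higher in 2 of 2 libraries. HSPA6 was the only member that passed the threshold in this comparison, in which 0.406% of the 16989 genes tested were called, all of them higher. The 2 control libraries also entered the choice of HSPA6, so this test is not fully separate from that choice. The adjusted p (limma) was 0.217 when the 10 libraries were fitted together, so the call was lost there. HSPA6 had the 41st highest log2 fold change of the 16989 genes.

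In BRM-wt, HSPA6 was at 34.3 ± 22.4 normalised reads (SD, n = 2), a ratio of 3.25 to control, with a log2 fold change of 1.55 ± 0.68 (SE, adjusted p = 1.00 by limma). This difference did not pass the test, and the 95% interval ran from -0.23 to 3.33. Without BRM-wt a the value was 0.79 and without BRM-wt b it was 2.21.

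The mutant groups are described without a test. HSPA6 was at 171.7 ± 35.1 normalised reads in BRG1-mut (SD, n = 2), a ratio of 16.3 to control and a log2 fold change of 3.95, the 4th highest of 16812 genes. It was at 278.4 ± 223.4 in BRM-mut (SD, n = 2), a ratio of 26.4 and a log2 fold change of 4.41, the 2nd highest of 16764 genes. Between the active protein and its ATPase-deficient form, the log2 difference was 0.77 ± 0.21 (SE) higher in BRG1-wt than in BRG1-mut. For BRM it lay the other way, and HSPA6 fell by 2.85 ± 0.90 on the log2 scale from BRM-mut to BRM-wt. Both differences hold mutant libraries by which HSPA6 was chosen, so their SE are not read as a test. The BRM-mut mean rests on library a, since the log2 fold change was 3.46 without it and 5.31 without library b.

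**Figure D2:**
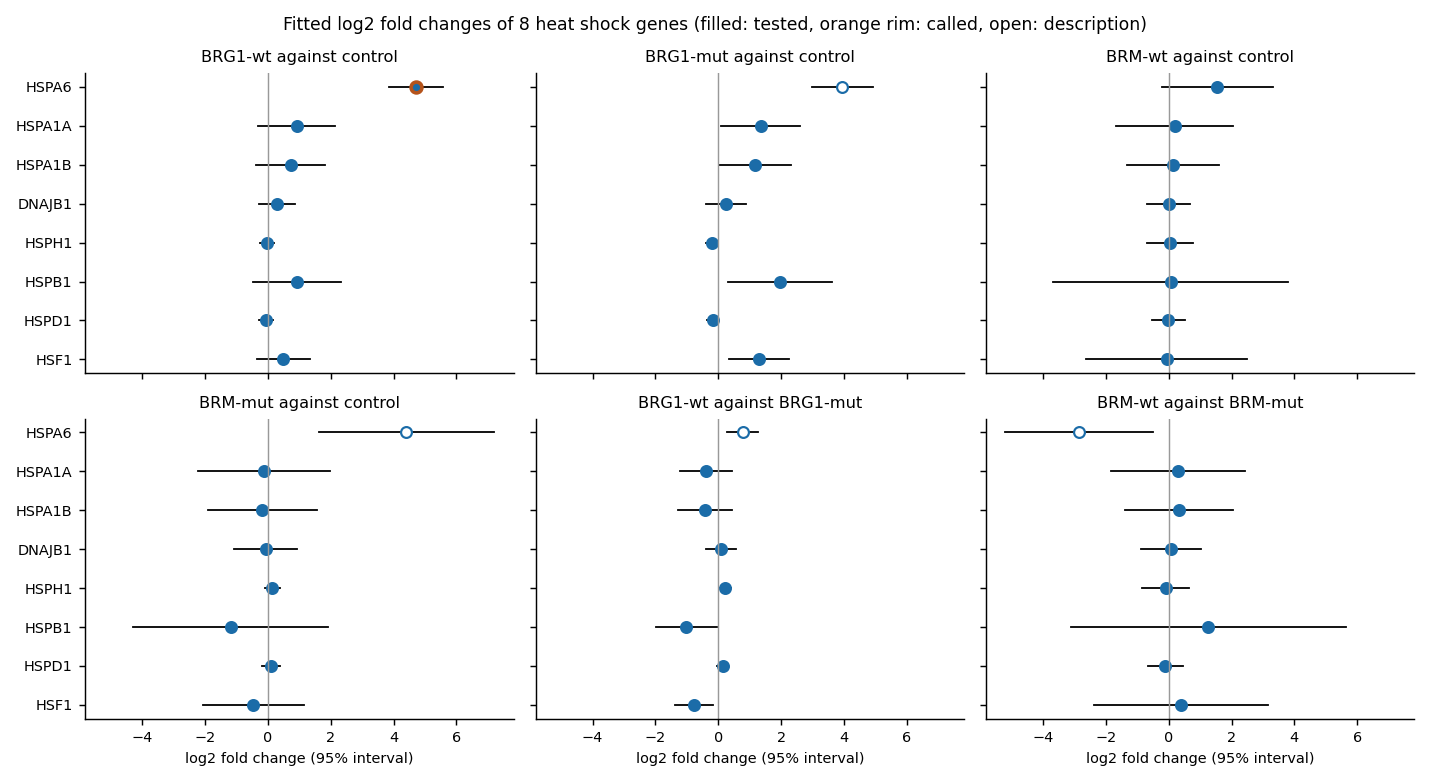
Fitted log2 fold changes (horizontal axes, with 95% intervals as lines) of the 8 heat shock genes whose reads are unique, in the 6 comparisons. HSPA6 in BRG1-wt against control, at 4.70, carries the orange rim of a called gene, and its open symbols in the 4 panels with a mutant group are descriptions without a test. The intervals of these open symbols are not read as a test either.

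HSPA6 has close copies whose reads could be mistaken for its own. HSPA7, a near-identical neighbour on chromosome 1 (161576081 to 161578007) that is regarded as a pseudogene, had 2 reads in BRG1-wt a, 1 in BRG1-mut a and 0 in the other 8 libraries. As a percentage of the reads of HSPA1A and HSPA1B together, HSPA6 stood at 0.417% and 1.19% in control, 14.7% and 7.98% in BRG1-wt and 4.35% and 5.39% in BRG1-mut. It stood at 4.42% and 0.715% in BRM-wt and at 18.2% and 16.6% in BRM-mut. The ratio thus differed between libraries. Both BRM-mut libraries stood above the 8 others, but HSPA6 was chosen by its levels there. The reads of HSPA1A and HSPA1B together were also fewest in BRM-mut b, at 722 against 2780 in BRM-mut a, which raises the ratio in BRM-mut b. Whether reads of these copies were taken for HSPA6 was not tested.

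HSPA1A (ENSG00000204389, chromosome 6 from 31783320 to 31785723) and HSPA1B (ENSG00000204388, chromosome 6 from 31795515 to 31798031) encode the main stress-inducible HSP70. Their coding sequences are almost the same, so the split of reads between them is uncertain. HSPA1A was at 831.8 and 303.8 normalised reads in control, 698.8 and 1372.5 in BRG1-wt and 1615.9 and 1011.2 in BRG1-mut. It was at 358.4 and 970.2 in BRM-wt and at 897.8 and 232.9 in BRM-mut. Both BRG1-mut libraries lay above the control libraries, and the 3 other groups overlapped with control. HSPA1B ranged from 492.0 in BRM-mut b to 2897.5 in BRG1-mut a, and HSPA1A made up 31.6% to 37.6% of the reads of the pair in all 10 libraries.

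Against control, the log2 fold change of HSPA1A was 0.92 ± 0.50 in BRG1-wt (SE, adjusted p = 0.788 by limma) and 1.35 ± 0.49 in BRG1-mut (adjusted p = 0.292), and neither passed the test. In the BRM groups it was 0.19 ± 0.71 and -0.12 ± 0.80. The values depended on single libraries. With 1 library left out, the log2 fold change of HSPA1A ran from 0.22 to 1.65 in BRG1-wt and from 0.61 to 2.10 in BRG1-mut. That of HSPA1B in BRG1-mut ran from 0.56 to 1.80. Each was highest without control a. Such fits keep 1 library in a group, so only the size of the difference is given. HSPA1A in BRM-mut, at a mean of 565.4 ± 470.1, was at the level of control, 567.8 ± 373.4 (SD, n = 2).

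HSPA8 (ENSG00000109971, chromosome 11 from 122928197 to 122933938), the constitutive HSP70, and HSP90AA1 (ENSG00000080824, chromosome 14 from 102547079 to 102606036), the inducible cytosolic HSP90, were the most abundant of the 10 genes. For both of them the deposited means allow more than 1 set of reads, so they are described by the authors' base means over 2 libraries of the group and 2 of control, without a spread or a test. The authors' base mean of HSPA8 was 142137 for BRG1-wt, 137341 for BRG1-mut, 142896 for BRM-wt and 157564 for BRM-mut, each with control. That of HSP90AA1 was 155492, 146804, 155362 and 172622 in the same order. Each table has size factors of its own (control b, for example, was divided by 0.934 in that of BRM-mut and by 0.994 in that of BRM-wt), so these values are not on 1 scale and no order is read from them.

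DNAJB1 (ENSG00000132002, chromosome 19 from 14625581 to 14671203) is the J-domain partner that HSF1 induces with HSPA1A. It was at 5239.2 and 3457.4 normalised reads in control, 4460.4 and 6218.0 in BRG1-wt and 5890.0 and 4357.1 in BRG1-mut, and at 4010.5 and 4555.7 in BRM-wt and 5644.4 and 2887.8 in BRM-mut. All groups overlapped with control. Its log2 fold changes against control lay between -0.08 in BRM-mut and 0.30 in BRG1-wt, and none passed the test. DNAJB1 overlaps TECR on the other strand, and whether strand was used in counting is not given in the sources used here.

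HSPH1 (ENSG00000120694, chromosome 13 from 31709110 to 31736525), a nucleotide exchange factor of the HSP110 family, was at 8810.0 and 8834.7 normalised reads in control. It was at 8525.1 and 9005.3 in BRG1-wt, 7815.2 and 7625.8 in BRG1-mut, 11590.7 and 7051.8 in BRM-wt and 9672.9 and 9878.3 in BRM-mut. Both BRG1-mut libraries lay below control and both BRM-mut libraries above it. The log2 fold change was -0.20 ± 0.08 in BRG1-mut (SE, adjusted p = 0.294 by limma) and 0.14 ± 0.10 in BRM-mut (adjusted p = 0.992), and neither passed the test.

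HSPD1 (ENSG00000144381, chromosome 2 from 198351308 to 198381461), the mitochondrial chaperonin HSP60, had the narrowest range of the members with unique reads, from 49969.1 normalised reads in BRM-wt b to 69262.0 in BRM-wt a, a ratio of 1.39. These extremes both belong to BRM-wt, and in BRG1-mut, at 52354.5 and 53329.9, both libraries were below the control values of 58167.8 and 60842.8. The log2 fold change there was -0.18 ± 0.07 (SE, adjusted p = 0.294 by limma), which did not pass the test. HSPD1 overlaps HSPE1 and MOB4 on the other strand.

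HSPB1 (ENSG00000106211, chromosome 7 from 75931990 to 75933612), the small heat shock protein HSP27, was at 426.6 and 118.2 normalised reads in control and 326.2 and 587.6 in BRG1-wt. It was at 1244.3 and 614.9 in BRG1-mut, 64.5 and 934.5 in BRM-wt and 293.8 and 31.1 in BRM-mut. HSPB1 thus ran from 31.1 in BRM-mut b to 1244.3 in BRG1-mut a, and the libraries of BRM-wt lay on either side of the range of control. The log2 fold change of HSPB1 in BRG1-mut was 1.97 ± 0.65 (SE, adjusted p = 0.292 by limma), which did not pass the test. With 1 library left out it ran from 1.04 to 2.93, and in BRG1-wt from 0.03 to 1.85, both highest without control a. With all 4 libraries the value in BRG1-wt was 0.92 ± 0.58 (adjusted p = 0.788 by limma).

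HSF1 (ENSG00000185122, chromosome 8 from 145515273 to 145538383), the regulator of the response, was at 943.3 and 457.2 normalised reads in control and 776.4 and 1143.2 in BRG1-wt. It was at 1950.3 and 1325.8 in BRG1-mut, 258.0 and 1710.4 in BRM-wt and 804.5 and 276.1 in BRM-mut. Both BRG1-mut libraries were above control, while the 2 libraries of BRM-wt lay on either side of every control value. The log2 fold change in BRG1-mut was 1.29 ± 0.38 (SE, adjusted p = 0.292 by limma), which did not pass the test. With 1 library left out it ran from 0.76 to 1.84, highest without control a. HSF1 overlaps DGAT1 on the other strand, and its reads are uncertain to that extent. The RNA level of HSF1 says nothing of its trimers or its binding to DNA, which were not measured.

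Per kilobase of exons, the mean levels in control of the 8 genes with unique reads ran from 7800 normalised reads for HSPD1 through 1051 for HSPH1, 531 for DNAJB1, 427 for HSPA1B, 236 for HSPA1A and 168 for HSPB1 to 132 for HSF1 and 4.48 for HSPA6. In BRG1-wt the level of HSPA6 on this scale was 122, below the 181 of HSF1, and in BRM-mut it was 118, above the 102 of HSF1 and the 100 of HSPB1. HSPA6 was thus the lowest of these 8 genes in control, BRG1-wt, BRG1-mut and BRM-wt, also where its ratio to control was high. The length used is the union of all annotated exons of a gene, 2355 bases for HSPA6 and 5305 for HSF1. It can exceed the length of a transcript, and the order of genes at near levels depends on it.

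The libraries differed in their content of GC-rich transcripts. As a measure, the median log2 ratio to the mean of the 10 libraries was taken for 1322 genes with at least 60% exonic GC, minus that for 2282 genes with at most 40% GC. It was 0.06 and -0.93 in control, -0.15 and 0.28 in BRG1-wt, 1.06 and 0.51 in BRG1-mut, -1.61 and 0.88 in BRM-wt and -0.25 and -1.69 in BRM-mut. The 2 control libraries therefore stood apart by about 1 unit, and both BRG1-mut libraries lay above every control value.

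Over the 10 libraries, the log2 level of HSF1 (64.7% GC) had a Pearson r of 0.998 with this measure (permutation p = 1e-05, the smallest that 100000 permutations can give, adjusted p = 2.67e-05 over 8 relations) and a Spearman rho of 0.976 (permutation p = 2e-05, adjusted p = 8e-05). HSPB1 (64.3% GC) had an r of 0.989 (permutation p = 1e-05, adjusted p = 2.67e-05) and a rho of 1.00 (permutation p = 1e-05, adjusted p = 8e-05). HSPA1A (59.8% GC) had an r of 0.924 (permutation p = 0.00039, adjusted p = 0.00078) and a rho of 0.903 (permutation p = 0.00087, adjusted p = 0.00139). HSPD1 (38.6% GC) went the other way, with an r of -0.97 (permutation p = 1e-05, adjusted p = 2.67e-05) and a rho of -0.976 (permutation p = 3e-05, adjusted p = 8e-05). HSPA1B (58.8% GC) had an r of 0.909 (permutation p = 0.00051, adjusted p = 0.000816) and a rho of 0.903 (permutation p = 0.00087, adjusted p = 0.00139). DNAJB1 (56.3% GC) had an r of 0.727 (permutation p = 0.0179, adjusted p = 0.0204) and a rho of 0.673 (permutation p = 0.0381, adjusted p = 0.0435). HSPH1 (39.6% GC) had an r of -0.85 (permutation p = 0.0015, adjusted p = 0.002) and a rho of -0.842 (permutation p = 0.00357, adjusted p = 0.00476). HSPA6 (58.6% GC) had an r of 0.127 and a rho of 0.127, given as a description because its spread over these libraries is in part what it was chosen for. The permutations treat the 10 libraries as exchangeable although they share groups in pairs. HSF1 and HSPB1 are among the genes of at least 60% GC that define the measure. HSPD1 and HSPH1 are among those of at most 40%. For these genes r was thus in part set in advance, and how many other genes of like GC reach such an r was not counted. The p-values are therefore not evidence particular to heat shock genes. Without BRM-wt a and BRM-mut b, the libraries farthest from the median, r was 0.998 for HSF1, 0.994 for HSPB1, 0.854 for HSPA1A, 0.849 for HSPA1B, 0.506 for DNAJB1, -0.722 for HSPH1, -0.926 for HSPD1 and 0.189 for HSPA6.

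**Figure D3:**
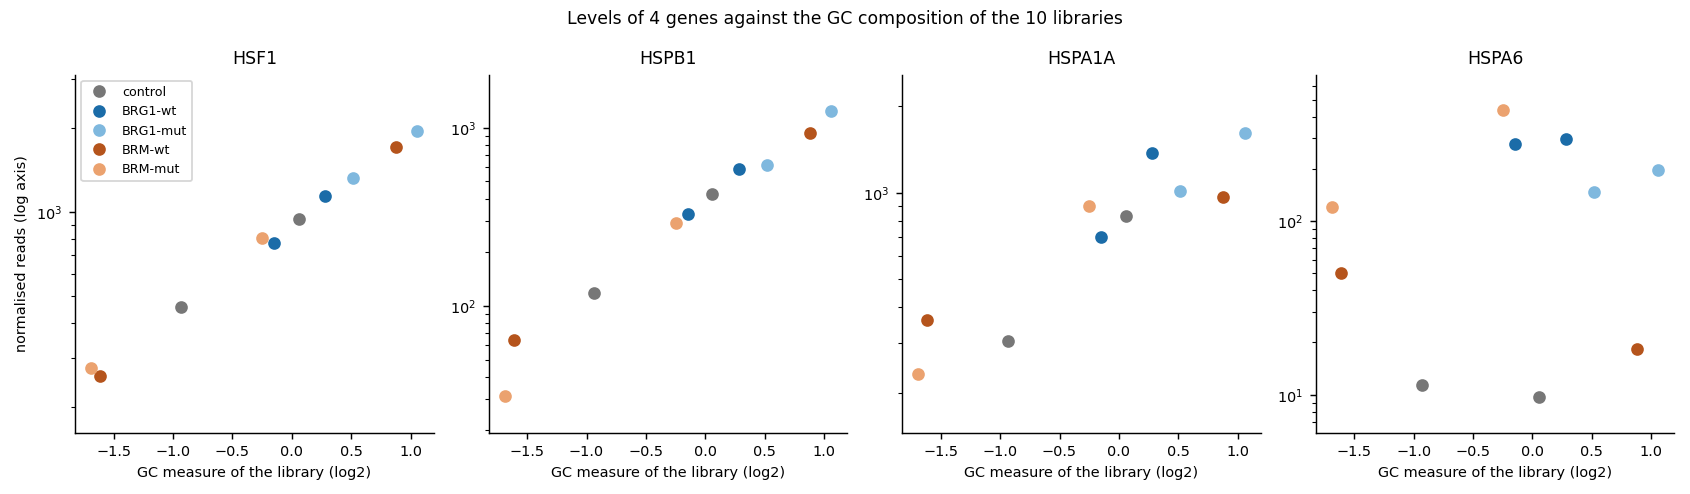
Normalised reads (log axes) of HSF1, HSPB1, HSPA1A and HSPA6 against the GC measure of each of the 10 libraries (log2), with groups in colours. HSF1 and HSPB1 rise along the axis with r of 0.998 and 0.989, while HSPA6, with r of 0.127, is lowest in the 2 control libraries, at 0.06 and -0.93 on the axis.

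With the median of genes of like GC content subtracted, the log2 fold change in BRG1-mut was 0.04 for HSF1, 0.71 for HSPB1, 0.67 for HSPA1A, 0.57 for HSPA1B and 3.35 for HSPA6. In a fit of all 10 libraries with the GC measure as a term, chosen after seeing the data, it was -0.04 for HSF1, -0.18 for HSPB1, 0.19 for HSPA1A and 3.18 for HSPA6. The measure comes from the same reads, and both BRG1-mut libraries lay above every control library on it. An effect of BRG1-mut on GC-rich genes and a difference in library composition therefore cannot be told apart by these values. In BRG1-wt, HSPA6 kept a log2 fold change of 4.47 (adjusted p = 0.0160 by limma standard errors) after the subtraction and of 4.39 (adjusted p = 0.0461) with the term.

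**Figure D4:**
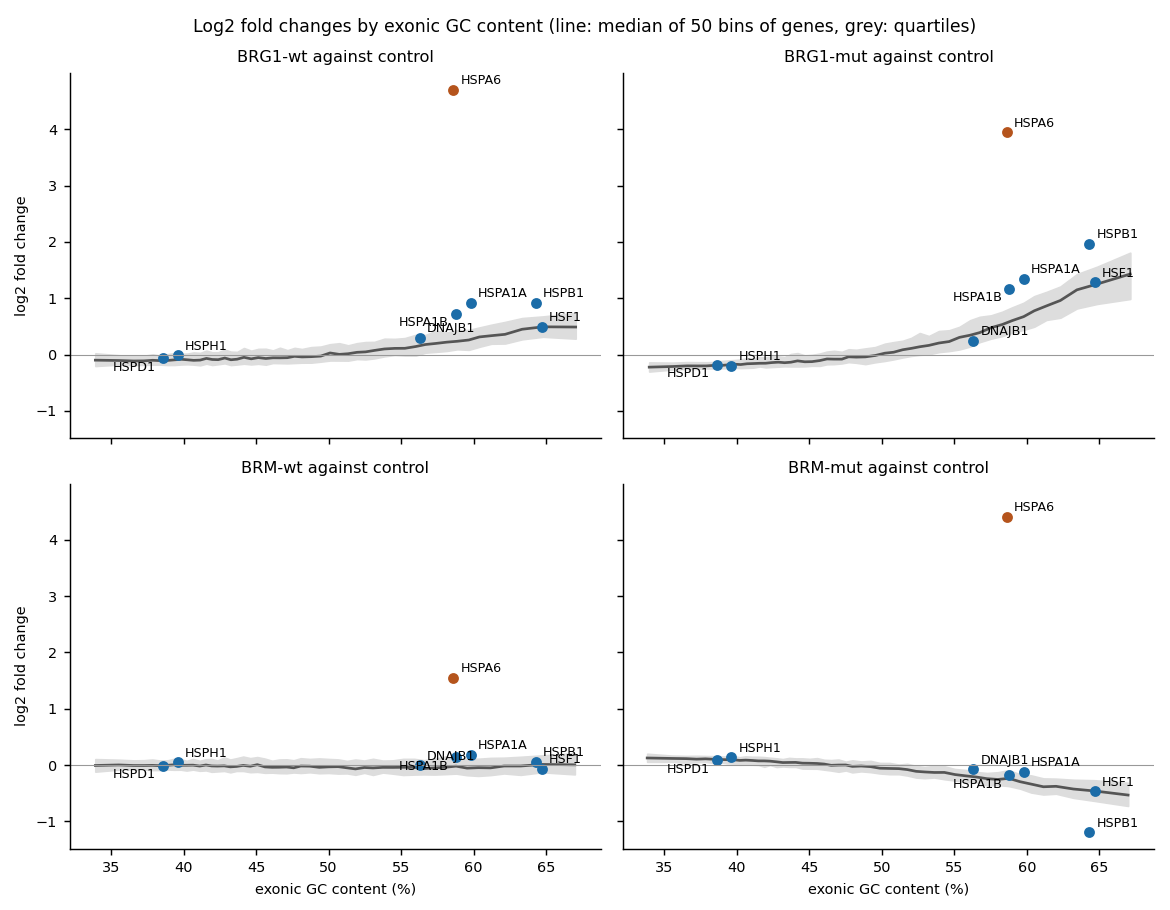
Log2 fold change against control (vertical axes) by exonic GC content (percent) for the 8 genes with unique reads, over the median (line) and quartiles (grey) of 50 bins of all genes tested. HSF1 lies on the line in the panel of BRG1-mut, at 1.29, and HSPA6 lies above it in all 4 panels. HSPA6 was chosen by its levels in the mutant groups.

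The members were read against the share of all genes called. In BRG1-mut against control, 0 of the 7 members tested (HSPA6 apart) were called by limma, where 0% of 16812 genes were, and 6 of the 7 had an unadjusted p under 0.05, as had 2791 of all genes. In BRM-wt against control 0 of 8 members were called, where 0% of 16797 genes were, and 0 members and 414 genes had an unadjusted p under 0.05. In BRM-mut against control 0 of 7 were called, where 0% of 16764 genes were, and 0 members and 72 genes had an unadjusted p under 0.05. The transfected genes SMARCA4 and SMARCA2 did not pass in these comparisons either. Their lowest adjusted p was 0.102 in BRG1-mut, 0.407 in BRM-wt and 0.992 in BRM-mut (limma). A count of 0 called there therefore does not show that levels were unchanged. The median log2 fold change of the 7 members without HSPA6 was 0.49 in BRG1-wt, 1.17 in BRG1-mut, 0.05 in BRM-wt and -0.12 in BRM-mut, beside medians of 0.00, -0.01, -0.02 and -0.02 over all genes tested. After the subtraction of the median of genes of like GC content, the median of these 7 members was 0.15 in BRG1-wt, 0.04 in BRG1-mut, 0.05 in BRM-wt and 0.05 in BRM-mut.

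Of the active proteins against their ATPase-deficient forms, BRG1-wt against BRG1-mut had 0 of 7 members called, where 0.51% of 17065 genes were called, all of them higher in BRG1-wt. In that comparison 3 members (HSPH1, HSPB1 and HSF1) and 3061 genes had an unadjusted p under 0.05. HSPB1 fell by 1.02 ± 0.40 on the log2 scale (SE, adjusted p = 0.260 by limma) and HSF1 by 0.77 ± 0.25 (adjusted p = 0.187) in BRG1-wt relative to BRG1-mut. With 1 library left out, the log2 difference ran from -1.5 to -0.48 for HSPB1 and from -1.05 to -0.46 for HSF1. After the GC subtraction the log2 difference with all 4 libraries was -0.27 for HSPB1 and -0.02 for HSF1, and with the GC measure as a term it turned to 0.25 and 0.02. In BRM-wt against BRM-mut 0 of 7 members were called, where 0% of 16916 genes were, and 0 members and 403 genes had an unadjusted p under 0.05.

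Counted by overlap alone, and with HSPA6 left out because its place was fixed by its choice, 4 of the 7 other members with unique reads (HSPA1A, HSPA1B, HSPB1 and HSF1) had both BRG1-mut libraries above both control libraries, as had 30.8% of 16504 genes. HSPH1 and HSPD1 had both below, as had 26.4%. In BRG1-wt 0 of the 7 lay wholly above control (17.5% of genes) and 0 wholly below (20%). In BRM-wt it was likewise 0 above (9.43%) and 0 below (9.18%), and in BRM-mut 1, HSPH1, above (10.4%) and 0 below (8.97%).

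The 7 lists of other chaperone genes held 71 genes with an identifier, of which 59 were tested in each comparison with control. These were 12 genes of the HSP70 family, 16 J-domain proteins, 13 HSP90 proteins and co-chaperones, 9 nucleotide exchange factors and BAG proteins, 7 small heat shock proteins, 9 chaperonins and 5 heat shock factors and their regulators. None of those tested was called in any of the 4 comparisons with control, with lowest adjusted p of 0.108 in BRG1-wt, 0.292 in BRG1-mut, 0.926 in BRM-wt and 0.992 in BRM-mut (limma). At an unadjusted p under 0.05 there were 1, 13, 1 and 0 of them in the same order, beside 1112 of 16989, 2791 of 16812, 414 of 16797 and 72 of 16764 among all genes. Their median log2 fold change was -0.07 in BRG1-wt, -0.10 in BRG1-mut, -0.06 in BRM-wt and 0.02 in BRM-mut. In BRG1-wt against BRG1-mut 1 of 61 was called, where 0.51% of all genes were, and 12 had an unadjusted p under 0.05, as had 3061 of 17065 genes. In BRM-wt against BRM-mut 0 of 59 were called by limma, where 0% of all genes were, and 1 had an unadjusted p under 0.05, as had 403 of 16916 genes.

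The called gene was CRYAB (ENSG00000109846, chromosome 11 from 111779288 to 111794446), which encodes the small heat shock protein alpha-B-crystallin. It was at 1.0 and 11.4 normalised reads in control, 238.0 and 139.4 in BRG1-wt and 0.9 and 4.4 in BRG1-mut. It was at 88.7 and 169.7 in BRM-wt and at 8.6 and 3.0 in BRM-mut. All 4 libraries with an active ATPase lay above the 6 others, which were at 11 reads or fewer. CRYAB was higher in BRG1-wt than in BRG1-mut by 6.17 ± 0.82 on the log2 scale (SE, adjusted p = 0.0420 by limma, 2 of 2 libraries). The alternative settings gave an adjusted p between 0.00060 and 0.199, and 8 of 10 of them kept the call.

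Against control, CRYAB had log2 fold changes of 5.49 ± 0.92 in BRG1-wt (adjusted p = 0.108 by limma) and 4.89 ± 1.03 in BRM-wt (adjusted p = 0.926). Neither passed here, whereas the study, by DESeq2, listed CRYAB among the genes higher in BRM-wt than in control. The log2 fold change listed by the study was smaller than the value here, and its list gives none for CRYAB in BRG1-wt. In BRM-wt against BRM-mut, CRYAB had 4.41 ± 0.74 (adjusted p = 0.678 by limma), which did not pass either. With the GC measure as a term in the fit of 10 libraries, chosen after seeing the data, these were 5.39 (adjusted p = 0.0210 by limma), 4.88 (adjusted p = 0.0339) and 4.25 (adjusted p = 0.0388). In both comparisons of BRM-wt this was the only 1 of 12 alternatives that passed. In BRG1-wt against control 6 of 12 passed. In the 4 libraries with an ATPase-deficient protein CRYAB was at 8.6 or less and HSPA6 at 120.5 or more, the latter being the values by which HSPA6 was chosen. CRYAB overlaps HSPB2 on the other strand. The summed epithelial markers given above, mostly KRT8 and KRT18, were also highest in BRG1-wt and BRM-wt. Their part in the levels of CRYAB was not tested.

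**Figure D5:**
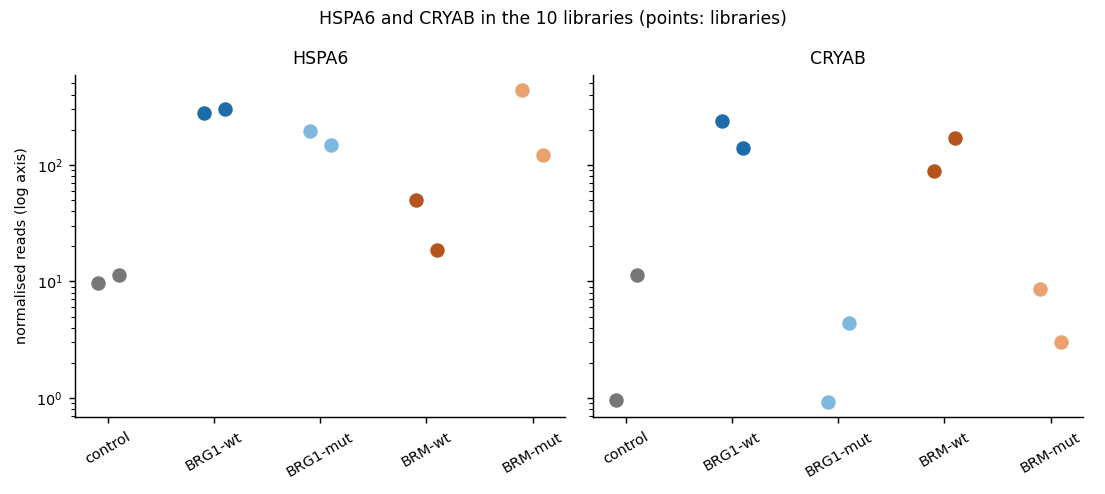
Normalised reads (log axis) of HSPA6 and CRYAB in the 5 groups, with a point for each library. HSPA6 is above control in all 8 libraries with an ATPase plasmid, but it was chosen by its levels in the mutant groups. CRYAB is at 88.7 or more in the 4 libraries of BRG1-wt and BRM-wt and at 11.4 or less in the 6 others.

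Among 17467 genes, the 5 whose log2 level followed HSPA6 most closely over the 10 libraries were ENSG00000272156 (Pearson r of 0.962), EDNRA (0.859), ENSG00000226381 (0.842), PRPF4BP1 (0.840) and ARHGEF6 (0.832). These r values are a description of libraries that share a group in pairs. None of the 5 is on the lists of chaperone genes. Their range was narrower than that of HSPA6, and ENSG00000272156 for example ran from 15.5 normalised reads in control a to 26.1 in BRG1-mut a. Within the group, HSPA1A came closest to HSPA6 with an r of 0.354, at place 886 of the 17467 genes, and the next were DNAJB1 with 0.348 and HSPA1B with 0.335. HSPA8 and HSP90AA1 were not ranked, since their reads are not unique.

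In the splicing tables, the only event listed in any of the 10 genes was an exon of HSP90AA1 of 211 bases on chromosome 14 (- strand, GRCh37, from 102568212 to 102568422). It was listed in 1 of the 8 tables, that of BRM-mut replicate 1, with a PSI (the share of the gene's transcripts in which the exon is kept, as a fraction) of 0.14 in control and 0.08 in BRM-mut. Reads per event are not listed, so the depth of these 2 values is unknown. No event of HSPA6 was listed among the 5191 events of the 8 tables, and a gene without introns can have none.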

How the data were processed

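RNA from 10 libraries of transfected C33A cells was sequenced by the study, and 4 expression tables and 8 splicing tables were used. According to the submitters' processing notes and methods, the authors mapped reads to GRCh37 with TopHat2 2.0.4 and counted them on genes with HTSeq 0.6.1, with duplicates kept, and the deposited base mean, a signal in normalised reads, is the mean over 2 libraries of a group and 2 of control after division by size factors that the authors made with DESeq2. The deposited PSI is a fraction that the authors estimated with MISO. Per the file headers, the splicing tables list events past a Bayes factor threshold of 10, so an event that is not listed may have missed it. The authors' columns of fold changes, standard errors, p-values and Bayes factors hold their own comparisons and were not used.

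The base means are printed to 15 digits, so the whole reads of single libraries were recovered. Genes with a single read gave the weight of each library, and the control libraries are the 2 whose single-read values recur in all 4 tables, in 291 and 263 genes. The 10 reads of a gene were solved as whole numbers from its 4 base means by lattice reduction (sympy 1.14.0). All 63152 genes were solved, and size factors computed again from these reads differed from the recovered ones by at most 0.0095%. The solution nearest to an even spread was taken. Other solutions were searched in the members, the transfected genes and genes with at least 10000 normalised reads in a library, and not exhaustively. For 13 genes, among them HSPA8 and HSP90AA1, more than 1 solution was found, and these were left out of the tests. Whether the reads of all other genes are unique was not examined. The steps were tested on simulated data, in which genes above 100000 reads were not always solved correctly. In the data 20 genes had more than 100000 reads in a library, and those with 1 solution found were kept.

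Each comparison was fitted on its 4 libraries with limma 3.58.1 (R 4.3.3) with voom weights, a pseudocount of 0.5 reads, median-of-ratios scaling and genes with at least 10 reads in at least 2 libraries. P-values are two-sided, adjusted by Benjamini-Hochberg over all genes tested, with a threshold of 0.05. GC content and positions come from GENCODE lifted to GRCh37, and 55139 identifiers had a symbol. Of 94 listed symbols 92 were matched. Promoters come from RefSeq. Python 3.11.15 was used with numpy 2.4.6, pandas 2.3.3, scipy 1.17.1 and matplotlib 3.10.9.

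The 10 genes and the lists were chosen with earlier results of these data known. Named genes are the 10 members, up to 4 called genes per list and comparison, the transfected genes, HSPA7 and the 5 genes with the highest Pearson correlation of log2(normalised reads + 1) with HSPA6. Alternatives were total-read scaling, no filter, other pseudocounts and weights, one fit of 10 libraries with and without the GC measure, GC subtraction in 50 bins, a threshold of 0.01, each library left out, Spearman correlation, scaling of levels by total reads and a minimum change in PSI of 0.2.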

Additional observations from a re-analysis of the deposited data

Results flagged for a closer look

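HSPH1 was marked because both BRM-mut libraries lay above both control libraries and both BRG1-mut libraries below them, with a log2 ratio of the BRM-mut mean to the BRG1-mut mean of 0.34. The difference between these 2 effects was not tested. The GC measure of the libraries was -0.25 and -1.69 in BRM-mut and 1.06 and 0.51 in BRG1-mut, and the exons of HSPH1 hold 39.6% GC. Over the 10 libraries its level had a Pearson r of -0.85 with this measure (permutation p = 0.0015, adjusted p = 0.002 over 8 relations). With the GC subtraction, its log2 fold change against control went from -0.20 to -0.02 in BRG1-mut and from 0.14 to 0.05 in BRM-mut. HSPH1 is itself among the genes of at most 40% GC that define the measure, and the measure differs between these groups. The part of library composition in this pattern was not tested.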

How the results depend on the processing

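No paired analysis was possible because the recovered libraries carry no replicate numbers. The number of members called in BRG1-wt against control was 1, and it was 0 in one fit of all 10 libraries and 0 at a threshold of 0.01. In these 2 settings the log2 fold change of HSPA6 was 4.71 (adjusted p = 0.217 by limma) and 4.70 (adjusted p = 0.0166). Over its 12 alternatives the log2 fold change lay between 4.39 and 4.82 and the adjusted p between 3.67e-06 and 0.217. With 1 library left out, a lone library is assumed to vary like the other group, and the number of members called ranged from 1 to 3 in BRG1-wt, 0 to 4 in BRG1-mut and 0 to 2 in BRG1-wt against BRG1-mut, and was 0 in the 3 other comparisons. Of the 504 values of the other members under the alternatives, 8 passed the threshold and 0 called values changed sign.

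The number of genes called in BRG1-wt against control was 69, and it was 13 with scaling by total reads, 149 without a filter, 106 with a pseudocount of 2 reads and no weights, 26 in one fit of 10 libraries, 395 with the GC measure as a term, 0 at 0.01 and 52 to 772 with a library left out. In BRG1-wt against BRG1-mut it was 87, and 134, 547, 141, 14, 198, 0 and 109 to 1944 in the same order. In BRG1-mut against control it was 0, and it was 1 without a filter, 1 with the GC term and 0 to 2320 with a library left out, the highest without control a, which was also the highest in BRG1-wt. In BRM-wt against control it was 0, and 29 in one fit of 10 libraries, 375 with the GC term and 0 to 90 with a library left out. In BRM-mut against control it was 0, and 1 without weights, 1 with a pseudocount of 2 and 0 to 1 with a library left out. In BRM-wt against BRM-mut it was 0, and 30, 375 and 0 to 45 in the order given for BRM-wt. The causes were not tested.

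With levels scaled by total reads, the ratio of HSPA6 to control was 27.5 in BRG1-wt, 16.1 in BRG1-mut, 3.17 in BRM-wt and 26.1 in BRM-mut. By Spearman correlation, 3 of the 5 genes most like HSPA6 were the same. With a minimum change in PSI of 0.2, 0 exon events remained of 1. The low reads of HSPA6 in control, 10 and 11, limit the precision of its ratios, and intervals cover the spread of 2 libraries only.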
